A study of Mus musculus with 16 samples.

Results

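The genes described here encode the proteins of the cytosolic ribosome. They were chosen by symbol, as protein-coding genes of the GRCm38 annotation named Rpl or Rps with a number (and at most 1 of the letters a, l, x or y), together with Rplp0, Rplp1, Rplp2 and Rpsa. There were 80 matches among the 55487 genes measured, and the 77 with a mean level of at least 1 TPM over all libraries are the members. TPM, the deposited unit, is a gene's reads over its exon length as a share of the whole library. The level was used to choose them, so the levels of the members as a set are a description. The lowest member was Rps15a at a mean of 8.87 TPM, and the highest gene left out was Rpl3l, the muscle form of Rpl3, at 0.104 TPM. Rpl39l was left out at 0.00381 TPM, and Rpl10l was listed at 0 in all 16 libraries.

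The study treated diet-induced obese mice with G108, a long-acting analogue of glucagon, and asked whether extra dietary protein alters the response of the liver. RNA was sequenced from the livers of 16 male C57BL6/J mice, 1 library per mouse. The sample records give an age of 10 weeks at the start of a high-fat diet (60 kcal% fat) that ran for 8 weeks, after which the mice were housed singly and moved to a high-fat diet of standard protein (SP) or of high protein (HP). Vehicle or G108 at 2.5 nmol/kg was injected under the skin each morning for 22 days, and livers were taken after a fast of 4 h on day 25. The paper's methods give a younger age, a shorter high-fat period and an earlier last day than the records do. The groups are vehicle SP, G108 SP, vehicle HP and G108 HP, with 4 mice in each, so that all groups share sex, strain and the high-fat diet, and a p-value measures the spread between mice. The libraries are of whole liver, in which fewer cells of a type and less RNA per cell cannot be told apart.

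The ribosome is built from a large and a small subunit, each of ribosomal RNA and a fixed set of proteins, most of them present once per ribosome. The large subunit joins amino acids into protein, the small subunit reads the mRNA, and a stalk of acidic proteins on the large subunit recruits translation factors. Most ribosomal protein mRNAs begin with a cytosine followed by a run of pyrimidines, the terminal oligopyrimidine (TOP) motif, through which the mTOR pathway and Larp1 adjust their translation and stability to the supply of nutrients. In liver, ribosomes supply the plasma proteins and the enzymes of amino acid metabolism, and glucagon and dietary protein both act on the amino acid supply.

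The start of these genes is shown because many ribosomal protein mRNAs carry the TOP motif there. RefSeq promoters (GRCm38.p6) were found for 57 of the 77 members. A run of at least 8 C or T bases on the gene's own strand, overlapping the 20 bases on either side of the annotated start, was found in 27 members (47.4%) and in 15.9% of the 27025 genes with a promoter entry. The annotated first base was C or T in 47.4% of members and in 29.4% of all genes. The windows below run 5′ to 3′ from 15 bases before the annotated start, and the capitals mark the longest pyrimidine run inside the window, which for Rpl31 and Rplp0 is shorter than the longest run near the start (13 and 7 bases). Rplp2, Rps6, Rpl38 and Rpl31 are shown with a long run, and Rplp0, Rps3 and Rpl9 with a short one, because the results below turn on these genes. They lie at chr7:141447636-141447665 (+) for Rplp2, chr4:86857353-86857382 (−) for Rps6, chr11:114668565-114668594 (+) for Rpl38, chr1:39367836-39367865 (+) for Rpl31, chr5:115559452-115559481 (+) for Rplp0, chr7:99483695-99483724 (−) for Rps3 and chr5:65391417-65391446 (−) for Rpl9.
Rplp2: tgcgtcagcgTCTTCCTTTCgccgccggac
Rps6: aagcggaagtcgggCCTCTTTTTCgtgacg
Rpl38: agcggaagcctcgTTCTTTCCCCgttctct
Rpl31: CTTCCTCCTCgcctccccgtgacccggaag
Rplp0: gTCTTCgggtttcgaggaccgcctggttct
Rps3: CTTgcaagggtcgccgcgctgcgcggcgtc
Rpl9: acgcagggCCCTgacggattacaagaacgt
A missing run says only that these letters are not in the window, since an annotated start can miss the first base of the mRNA.

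The members lie on 19 chromosomes, 46 of them for the large and 31 for the small subunit. Their mean levels ran from 8.87 to 539.7 TPM with a median of 67.4 TPM, and all 77 lay above the median of 4.30 TPM of the 11839 genes tested. The highest was Rplp1, an acidic stalk protein (chromosome 9, bases 61913284 to 61914542 of GRCm38, minus strand). TPM divides by the exon length of a gene, which was over 2 times that of its coding transcript for 48 members. On reads per kilobase of the coding transcript Rplp1 still ranked 1, whereas Rps18 moved from rank 30 to rank 4 and Rpl41 from rank 16 to rank 6 (rho 0.66 between the rankings over 77 genes, a description). Rps15a, with an exon length of 6270 bases against a transcript of 640 bases, moved only from rank 77 to rank 71.

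The ribosomal proteins are a small share of liver mRNA here, and the share differed between groups. In vehicle SP the members made up 0.537%, 0.648%, 0.572% and 0.482% of TPM (mean 0.560% ± 0.0694, SD, n = 4). In G108 SP the share was 0.907%, 0.857%, 0.970% and 0.814% (0.887% ± 0.0669), so that all G108 SP mice lay above all other mice. On the HP diet the shares of vehicle mice (0.673%, 0.656%, 0.532% and 0.534%) and G108 mice (0.675%, 0.638%, 0.566% and 0.747%) overlapped. Both subunits showed this order, with means of 0.366% and 0.578% for the large subunit in vehicle SP and G108 SP and of 0.194% and 0.309% for the small subunit.

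TPM is a share of a fixed total, and other abundant transcripts differed between the same groups. The major urinary protein (Mup) genes, abundant secreted products of male liver, made up 42.6 to 49.7% of TPM in vehicle SP, 18.3 to 23.0% in G108 SP, 35.7 to 44.9% in vehicle HP and 18.2 to 29.6% in G108 HP. Genes of the mitochondrial genome made up 13.8 to 24.0% of TPM in vehicle SP, 18.9% ± 2.39 (SD, n = 4) in G108 SP, 15.2 to 20.7% in vehicle HP and 26.7% ± 7.70 in G108 HP, where the third mouse, at 37.3%, was the highest of all 16 and had the highest blood cell marker sum of its group (2005 TPM). With mitochondrial genome and Mup genes left out of the total, the members' share was 1.57%, 1.58%, 1.49% and 1.44% in vehicle SP and 1.62%, 1.45%, 1.50% and 1.35% in G108 SP. The groups then overlapped, with means of 1.52% ± 0.0642 and 1.48% ± 0.111 (SD, n = 4), and of 1.41% ± 0.165 in vehicle HP and 1.34% ± 0.0491 in G108 HP. Each gene is therefore given below on 2 scales, TPM as deposited and TPM divided by a median-of-ratios factor per library (scaled TPM), which sets the median gene equal between libraries.

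**Figure D1:**
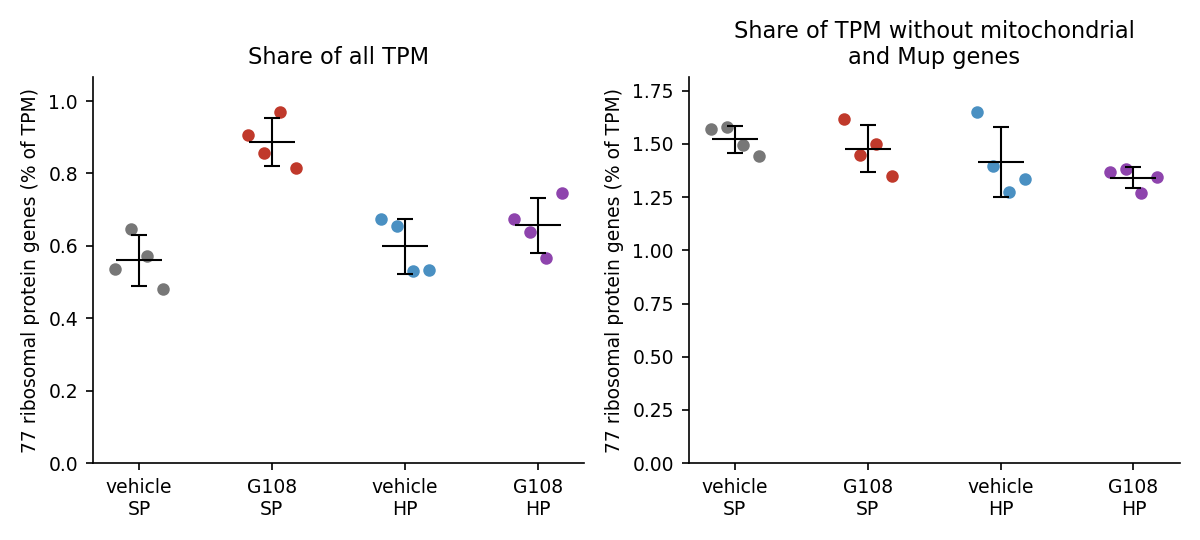
Share of TPM from the 77 ribosomal protein genes in each mouse, as a percentage of all TPM (left) and of TPM without mitochondrial genome and Mup genes (right), by group. Points are mice and bars are the mean and SD of 4 mice. The G108 SP mice lie above all others on the left, at 0.814 to 0.970%, and overlap vehicle SP on the right, at 1.35 to 1.62%.

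With G108 on the SP diet, ribosomal protein genes were higher as a body in TPM. In limma's test 75 of 77 members were called higher at an adjusted p under 0.05 and 0 lower, against a background of 77% of all 11839 genes called higher and 0.608% called lower. An unadjusted p under 0.05 was reached by the same count, 75, against 79.8% of all genes in either direction. Their median log2 difference in TPM was 0.66 (range 0.27 to 1.21), beside 0.60 over all genes. The 4 G108 mice lay above the 4 vehicle mice for 72 members, against 56% of all genes. Most genes of the liver were called in the same direction, and nothing particular to the members is read from these counts. Rpl38 was among the 2 members not called, and Rpl36, Rpl28 and Rpl31 were among those called although their groups overlapped. Large-subunit genes (45 of 46 called, median log2 difference 0.64) and small-subunit genes (30 of 31, median 0.68) moved alike in TPM.

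After median-of-ratios scaling 0 members were called in limma on the SP diet, where 1.29% of all genes were called higher and 1.34% lower. The median log2 difference in scaled TPM was −0.09 over the members and 0.00 over all genes, with 26 members above 0 and 51 below and a range of −0.48 to 0.47. An unadjusted p under 0.05 was reached by 4 members, Rpl3, Rpl9 and Rps3 higher and Rps18 lower, which is 4 of 77 against 17.6% of all genes. Rps3 alone had groups that did not overlap, against 4.7% of all genes higher and 4.45% lower in that way. Scaling moved the median of all genes by 0.60, so a direction for a ribosomal protein on this contrast holds only for the scale named.

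**Figure D2:**
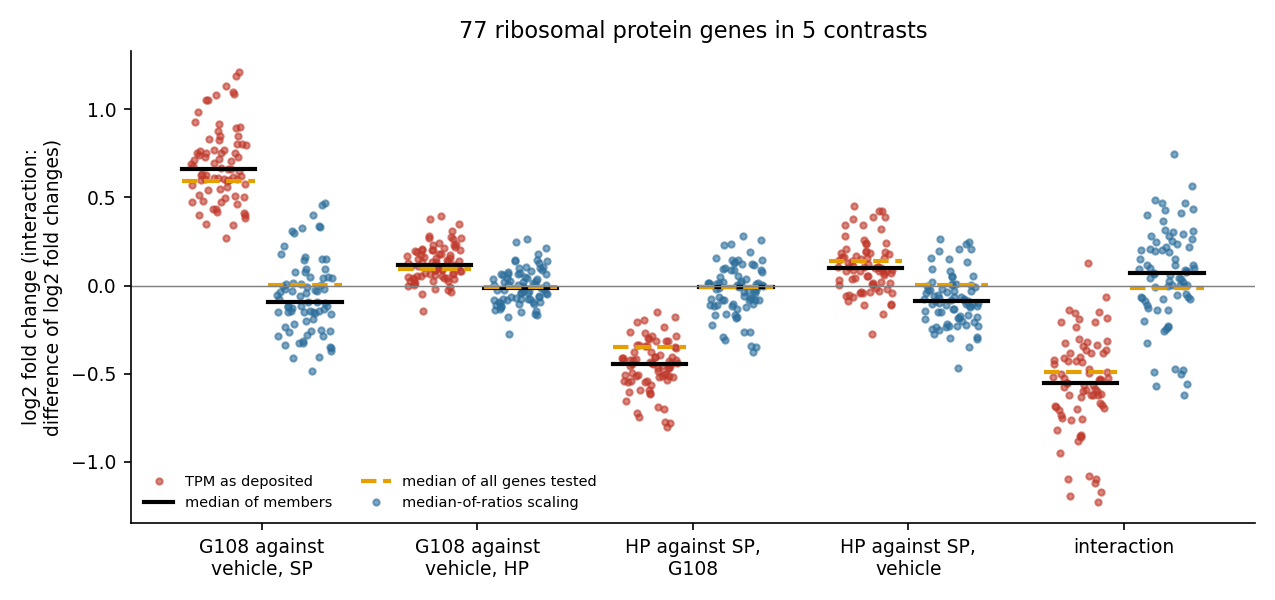
Log2 differences of the 77 ribosomal protein genes in the 5 contrasts, from TPM as deposited (red) and after median-of-ratios scaling (blue), with 1 point per gene. Black bars mark the median of the members and orange dashed bars the median of all 11839 genes, at 0.66 and 0.60 in TPM for G108 against vehicle on SP.

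Among the stalk proteins, Rplp1 was at 434, 507, 440.5 and 345 TPM in vehicle SP and at 798, 680.1, 766 and 593 TPM in G108 SP. All G108 SP values lay above all vehicle SP values, and the log2 difference was 0.72 ± 0.16 (SE, limma adjusted p = 0.00203) in TPM and −0.04 in scaled TPM. Rplp2, the partner of Rplp1 in the stalk, had the lowest adjusted p of the members, at 29.6, 35.2, 30.8 and 24.9 TPM in vehicle SP and 60.4, 51.5, 58.8 and 55.9 TPM in G108 SP. Its groups did not overlap, and the log2 difference was 0.90 ± 0.16 (limma adjusted p = 0.000819) in TPM and 0.15 ± 0.14 (adjusted p = 0.546) in scaled TPM. Rplp0 anchors both to the large subunit. It was at 85.0, 116, 122 and 46.1 TPM in vehicle SP and at 159, 159, 213 and 196 TPM in G108 SP, with a log2 difference in TPM of 1.05 ± 0.28 (limma adjusted p = 0.00452). The fourth vehicle SP mouse, at 46.1 TPM, was the lowest of all 16, and without it the log2 difference in TPM was 0.75 and still called.

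Rpl3, a protein of the peptidyl transferase centre, had the largest log2 difference of the members in TPM on the SP diet. Vehicle SP mice were at 24.8, 39.5, 40.0 and 15.9 TPM and G108 SP mice at 52.5, 62.3, 81.0 and 73.5 TPM. No values overlapped, and the log2 difference was 1.21 ± 0.28 (limma adjusted p = 0.00230). In scaled TPM vehicle SP mice were at 36.2, 40.9, 45.3 and 22.5 and G108 SP mice at 45.1, 47.4, 52.8 and 50.5. Here the lowest G108 value fell just under the highest vehicle value, and the log2 difference of 0.47 ± 0.18 did not pass limma's test (adjusted p = 0.200). Without the fourth vehicle SP mouse it was 0.26 in scaled TPM.

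Rps3, which lines the entry of the mRNA channel on the small subunit, was at 23.8, 25.7, 28.7 and 16.9 scaled TPM in vehicle SP and at 30.3, 30.2, 32.1 and 31.9 scaled TPM in G108 SP. The groups did not overlap, and the log2 difference was 0.40 ± 0.16 in scaled TPM (limma adjusted p = 0.234), or 0.25 without the fourth vehicle SP mouse. Rpl9, a large-subunit protein near the stalk base, differed by 0.46 ± 0.21 in scaled TPM (adjusted p = 0.277), or by 0.23 without that mouse, and by 1.19 ± 0.30 in TPM (adjusted p = 0.00341). Rpl4 (1.10 ± 0.28 in TPM, adjusted p = 0.00397), Rpl5 (1.05 ± 0.27, adjusted p = 0.00384), which carries the small ribosomal RNA of the large subunit, and the X-linked Rps4x (1.09 ± 0.28, adjusted p = 0.00384) were called in TPM and not in scaled TPM, where their log2 differences were 0.34, 0.31 and 0.33. In all of these the fourth vehicle SP mouse was the lowest of its group, and without it the scaled log2 differences of Rpl4, Rpl5 and Rps4x were 0.0529, 0.0916 and 0.13. Without it Rplp0 moved from 0.30 to 0.0595 in scaled TPM.

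Rpl38, a small protein known for its part in translating Hox mRNAs, went the other way in that mouse. It was at 81.1, 68.3, 48.3 and 111 TPM in vehicle SP and at 117, 80.5, 88.7 and 76.4 TPM in G108 SP. The fourth vehicle SP mouse was the highest of its group, the groups overlapped, and the log2 difference was 0.27 ± 0.25 in TPM (limma adjusted p = 0.315) and −0.48 ± 0.32 in scaled TPM. Without that mouse the values were 0.46 (adjusted p = 0.0827) in TPM and −0.23 in scaled TPM. Rpl36 (0.41 ± 0.18, limma adjusted p = 0.0466) and Rpl31 (0.35 ± 0.15, adjusted p = 0.0470) passed narrowly in TPM, and were called in 4 and 7 of the 16 fits that left out 1 library. Rpl36 shares 94.1% of its sequence, in words of 31 bases, with other annotated genes and pseudogenes, so its reads are uncertain.

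**Figure D3:**
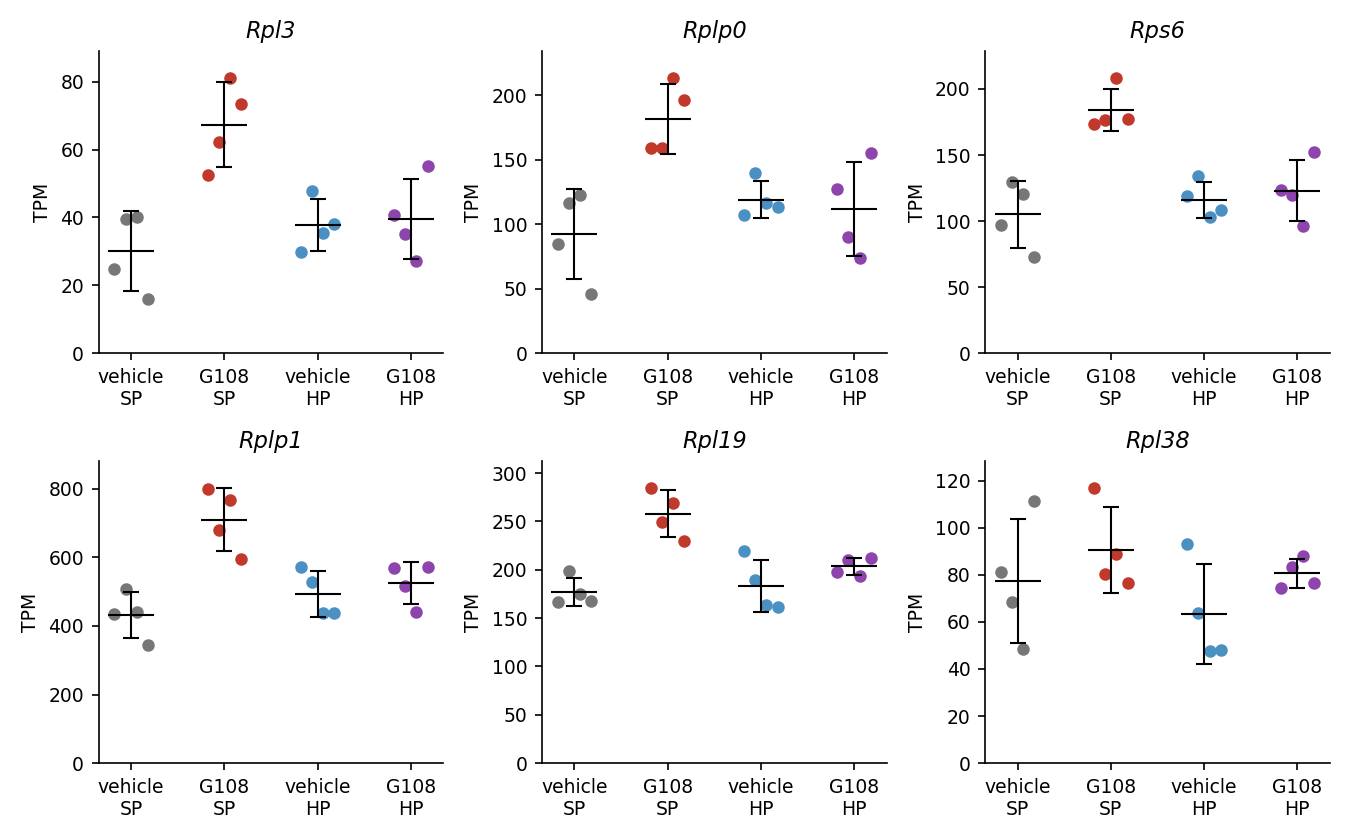
TPM of Rpl3, Rplp0, Rps6, Rplp1, Rpl19 and Rpl38 in each mouse by group, with mean and SD of 4 mice. For Rpl3 the G108 SP mice, at 52.5 to 81.0 TPM, lie above all vehicle SP mice, and for Rpl38 the groups overlap.

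Rps6, the small-subunit protein phosphorylated downstream of mTOR, was at 96.8, 129.9, 121 and 73.2 TPM in vehicle SP and at 174, 177, 208 and 177 TPM in G108 SP. The groups did not overlap (log2 difference 0.83 ± 0.18, limma adjusted p = 0.00206), whereas scaled TPM gave 0.07 ± 0.11. Rpsa, the small-subunit protein also known as a laminin receptor, was at 76.3, 89.9, 83.9 and 65.9 TPM in vehicle SP and 127, 119.8, 138 and 115 TPM in G108 SP, again without overlap (0.66 ± 0.14, adjusted p = 0.00172, and −0.09 in scaled TPM). Rpl41, the shortest member with 25 amino acids, differed by 1.08 ± 0.25 in TPM (adjusted p = 0.00250) and 0.33 ± 0.19 in scaled TPM (adjusted p = 0.374), or 0.12 without the fourth vehicle SP mouse, the lowest of its group. Rpl11, which with Rpl5 can bind the p53 regulator Mdm2, differed by 0.55 ± 0.14 in TPM (adjusted p = 0.00395) and by −0.20 in scaled TPM. Rps27a, made as a fusion with ubiquitin, differed by 0.60 ± 0.15 in TPM (adjusted p = 0.00379) and by −0.15 in scaled TPM. Rps19, often mutated in Diamond-Blackfan anaemia, differed by 0.57 ± 0.15 in TPM (adjusted p = 0.00387) and by −0.15 in scaled TPM.

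On the HP diet no ribosomal protein gene passed the test for G108. In TPM 0 of 77 members were called in limma and 0 reached an unadjusted p under 0.05, where 0.819% of all genes were called higher, 0.296% lower and 11.9% had such a p. With limma voom on recovered reads 0 were called and 4 had an unadjusted p under 0.05. The median log2 difference in TPM was 0.12 (range −0.14 to 0.40), beside 0.09 over all genes, with 70 members above 0, and the groups separated for 0 members, against 7.67% of all genes higher. In scaled TPM 0 were called, against 0.617% of all genes higher and 0.591% lower, and 0 had an unadjusted p under 0.05 (11.2% of all genes), and the median was −0.01. Rpl38 had the largest log2 difference in TPM at 0.40 ± 0.25 (adjusted p = 0.599). Rplp0 was at 128, 132, 128 and 130.4 scaled TPM in vehicle HP and at 125, 96.0, 85.2 and 127 scaled TPM in G108 HP. Its groups did not overlap, against 3.92% of all genes lower and 4.18% higher in that way, but the log2 difference of −0.28 ± 0.19 did not pass (adjusted p = 0.684).

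The diets were compared within each treatment, and each group enters 2 of these 4 contrasts, so the contrasts share mice. Among G108 mice HP lay below SP for all 77 members in TPM, with log2 differences from −0.80 to −0.15 and a median of −0.44, beside −0.35 over all genes. In limma 0 members and 0% of all genes were called in either direction, while 64 members had an unadjusted p under 0.05, all lower, against 45% of all genes in either direction. With limma voom on recovered reads 0 were called and 26 had such a p. The HP mice lay wholly below the SP mice for 56 members, against 20.5% of all genes. Rpsa had the lowest adjusted p, at 90.2, 87.3, 73.3 and 99.9 TPM in G108 HP against 115 to 138 TPM in G108 SP (log2 difference −0.51 ± 0.14, adjusted p = 0.0721). The calls turned on single libraries, with 38 members called without the fourth vehicle SP mouse, 16 without the first G108 SP mouse and 58 without the fourth G108 HP mouse. The fits that left out 1 library called 0 to 5047 of all 11839 genes, so nothing particular to the members is read from these counts. The fourth vehicle SP mouse is outside this contrast and enters only through the spread that the 4 groups share. In scaled TPM the median was −0.01, and 0 members and 0% of all genes were called. There 0 members had an unadjusted p under 0.05 (5.25% of all genes). Only Rpl10a, a large-subunit protein of the stalk next to the exit site, had groups that did not overlap, lower in HP (2.15% of all genes, with 2.09% higher).

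Among vehicle mice 0 members and 0% of all genes were called in limma in TPM for diet, in either direction. An unadjusted p under 0.05 was reached by 0 members in TPM (3.16% of all genes) and by 0 in voom. The median log2 difference was 0.10, beside 0.14 over all genes. The groups separated for 0 members in TPM, against 1.33% of all genes higher in HP, and for 0 in scaled TPM, against 1.06% lower. In scaled TPM the median was −0.09 with 19 members above 0 and 58 below, and 0 members and 0% of all genes were called. There 1 member, Rps27, a small-subunit protein, had an unadjusted p under 0.05, lower in HP (3.81% of all genes). Nothing particular to the members is read from these counts. The interaction, the G108 effect on HP minus that on SP, had a median of −0.55 in TPM beside −0.49 over all genes. In limma 0 members and 0% of all genes were called for it, with 53 members (all lower) and 48% of all genes at an unadjusted p under 0.05, 24 members in voom, and a lowest adjusted p of 0.0799. It too turned on single libraries, with 42 members called without the second vehicle SP mouse, 19 without the first G108 SP mouse and 49 without the fourth G108 HP mouse. Over all 11839 genes, the interaction had 0 to 5202 calls when 1 library was left out, and these counts are not read as particular to the members. In scaled TPM its median was 0.07, and 0 members and 0% of all genes were called. Rpl3 alone had an unadjusted p under 0.05 in limma (log2 difference −0.56 ± 0.25, adjusted p = 0.580), against 7.03% of all genes.

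Within the family the differences followed the length of the encoded protein, which the rule did not use. The members were split into 26 short (25 to 133 amino acids), 25 middle (135 to 184) and 26 long proteins (188 to 419). For G108 against vehicle on SP the median log2 difference in scaled TPM was −0.15, −0.15 and 0.05 for short, middle and long members. On HP the order was turned, at 0.07, 0.00 and −0.09. Spearman's rho of the scaled log2 difference with protein length over the 77 members was 0.49 on SP, −0.66 on HP, −0.57 for HP against SP with G108, 0.60 for HP against SP with vehicle and −0.60 for the interaction. Over the 9240 other genes with a coding length it lay between −0.10 and 0.03. These values describe genes of the same 16 libraries and carry no p. Leaving out each library in turn gave rho from 0.30 to 0.54 on SP, from −0.70 to −0.50 on HP, from −0.62 to −0.48 for HP against SP with G108, from 0.33 to 0.63 with vehicle and from −0.64 to −0.56 for the interaction. With the trend on mRNA length over all genes removed, rho was 0.33, −0.51, −0.35, 0.48 and −0.44 in the same order.

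**Figure D4:**
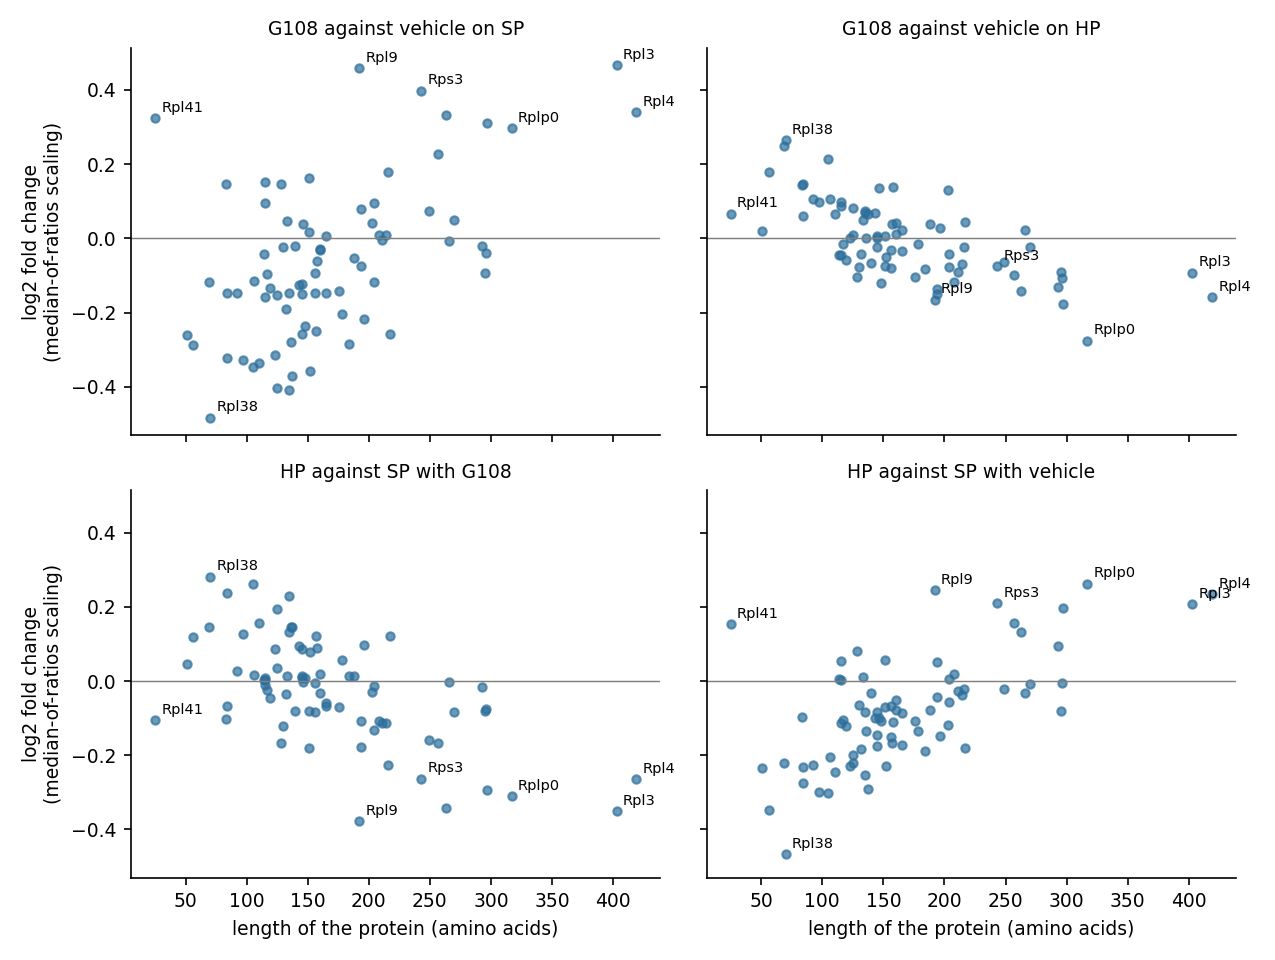
Log2 difference in scaled TPM of each of the 77 ribosomal protein genes against the number of amino acids it encodes, in 4 contrasts. The points rise with length for G108 against vehicle on SP (rho 0.49) and fall for the same comparison on HP (rho −0.66).

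The gap between long and short members was also taken in each mouse, as the mean log2 scaled TPM of the 26 long members less that of the 26 short ones. It was 0.47, 0.68, 0.84 and 0.10 in vehicle SP, 0.55, 0.68, 0.88 and 0.91 in G108 SP, 0.47, 0.79, 0.80 and 0.81 in vehicle HP, and 0.67, 0.50, 0.41 and 0.73 in G108 HP. The groups overlapped throughout, and the spread within vehicle SP (SD 0.318) exceeded the difference of its mean from G108 SP (0.523 against 0.753). The fourth vehicle SP mouse had the smallest gap of all 16. That library also had the highest summed blood cell markers (2107 TPM, against 606 to 2005 in the other 15). It had the lowest summed hepatocyte markers (40779 TPM, against 51150 to 112294 in the other 15). The part of these in the gap was not tested. Without it rho on SP fell to 0.30, and the median log2 differences in scaled TPM on SP were −0.13 for short and −0.0588 for long members. For HP against SP with vehicle, rho fell to 0.33 without it and the medians were −0.14 for short and −0.0965 for long members.

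The same was measured outside the family. In each library the other genes with an mRNA of up to 1000 bases, against those of over 2000 bases, deviated from their mean over libraries by 0.13, 0.04, −0.02 and 0.02 (log2, scaled TPM) in vehicle SP and by 0.23, −0.11, −0.06 and −0.14 in vehicle HP. In G108 SP the values were 0.13, 0.00, −0.15 and −0.23, and in G108 HP 0.04, 0.10, 0.09 and −0.03. The first vehicle HP mouse was the highest on this measure and had the smallest gap of its group, and in G108 SP the order of the mice was reversed between the measures. The 934 other genes with an mRNA of up to 1000 bases had a median log2 difference in scaled TPM of −0.07 on SP and 0.04 on HP, against 0.01 and −0.02 for the 5825 of over 2000 bases. The part of mRNA length in the gap was not tested beyond the trend removed above.

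**Figure D5:**
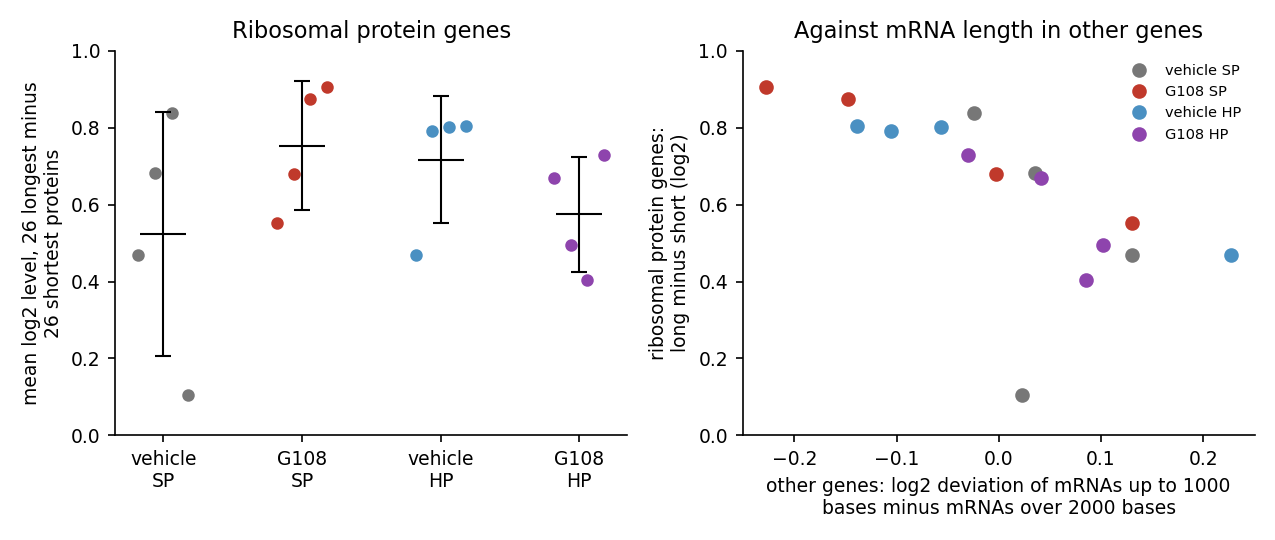
Left, the gap between long and short ribosomal protein genes (difference of mean log2 scaled TPM) in each mouse, with mean and SD of 4 mice per group. Right, the same gap against the deviation of other genes of short mRNA relative to long mRNA. The fourth vehicle SP mouse has the smallest gap, 0.10, at a deviation of 0.02.

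The pyrimidine run at the start did not divide the members. On the SP diet the median log2 difference in TPM was 0.65 for the 27 members with a run of at least 8 bases and 0.67 for the 30 with a shorter run, and −0.10 and −0.08 in scaled TPM. Rplp2 and Rpl38, both with a run of 10 bases, stood at 0.90 and 0.27 in TPM.

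Members varied together from mouse to mouse in scaled TPM. Over the 16 libraries the correlation of a member with the median of the members ran from −0.20 (Rps3) to 0.94 (Rpl23) with a median of 0.77, and 67 of 77 exceeded 0.5, while the other 11762 genes had a median of 0.00 and 940 exceeded 0.5. Each member is part of that median and all share the libraries, so these are descriptions. The lowest were Rps3, Rpl3, Rpl9, Rps4x, Rpl8, Rplp0, Rpl5 and Rpl4. Outside the family the highest were Trmt112 (0.90), a partner of methyltransferases including those of ribosomal RNA, Tpt1 (0.90), itself a TOP gene, the processed pseudogene Gm13456 (0.90), Gm21981 (0.88) and Tomm6 (0.88), a small subunit of the mitochondrial import pore. Within-group SD of log2 scaled TPM had a median of 0.194 over the members, from 0.0895 for Rpl15 to 0.493 for Rpl38, and of 0.205 over all genes.

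Genes that work with the ribosome were taken as lists. Of the 7 elongation factors tested (8 listed), 7 were called higher in TPM with G108 on SP, with a median log2 difference of 0.95 in TPM and 0.21 in scaled TPM. Eef1a1, which delivers aminoacyl-tRNA, was at 501, 824, 815 and 298 TPM in vehicle SP and 967, 1088, 1529.8 and 1338 TPM in G108 SP. The groups did not overlap, the fourth vehicle SP mouse again being the lowest (log2 difference 1.10 ± 0.31, limma adjusted p = 0.00569, and 0.34 in scaled TPM). Eef2, the translocase, differed by 1.22 ± 0.35 in TPM (adjusted p = 0.00648). Of 29 initiation factors 28 were called higher in TPM (median 0.85, and 0.14 scaled), among them Eif6, which keeps the subunits apart until the large one is mature (1.18 ± 0.29, adjusted p = 0.00333), and Eif4b, a helper of the mRNA helicase (0.88 ± 0.21, adjusted p = 0.00265). Of 26 other TOP genes 25 were called higher (median 0.79, and 0.09 scaled).

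Ribosome assembly and its control gave the same picture in TPM. Of 53 ribosome biogenesis genes tested (59 listed), 48 were called higher on SP (median log2 difference 0.58 in TPM and −0.01 in scaled TPM), including Fbl, the methyltransferase of ribosomal RNA (0.71 ± 0.15, limma adjusted p = 0.00158). Of 25 regulators of TOP mRNAs and ribosomal RNA synthesis tested (30 listed), 21 were called higher (0.58, and 0.02 scaled). Larp1, which binds the TOP motif, differed by 0.93 ± 0.19 in TPM (adjusted p = 0.00146) and by 0.22 in scaled TPM (adjusted p = 0.267). Rps6kb1, a kinase of Rps6, differed by 0.32 ± 0.12 in TPM (adjusted p = 0.0255) and by −0.21 in scaled TPM (adjusted p = 0.132), and Mtor by 0.55 ± 0.13 in TPM (adjusted p = 0.00305) and by −0.02 in scaled TPM. Ddit4, an inhibitor of mTOR, was not called at 0.37 ± 0.24 in TPM (adjusted p = 0.164).

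Ribosomal protein relatives that the symbol rule leaves out were 9 called of 9, with a median log2 difference of 0.67 in TPM and −0.04 in scaled TPM, among them Fau, a fusion of a ribosomal protein with a ubiquitin-like protein (0.77 ± 0.15, limma adjusted p = 0.00122), and the scaffold Rack1 (0.80 ± 0.17, adjusted p = 0.00187). For comparison, 78 of 78 mitochondrial ribosomal protein genes (0.68 in TPM, 0.02 scaled), 37 of 37 proteasome genes (0.78, 0.10) and 68 of 74 nuclear respiratory chain genes (0.72, −0.01) were called higher in TPM on SP. All of these counts stand against the background of 77%. In the other 4 contrasts in TPM, and in all 5 in scaled TPM, 0 genes of these lists were called in limma. Over all genes, 0% were called on either scale for HP against SP with either treatment and for the interaction. For G108 on HP, 0.819% were called higher and 0.296% lower in TPM, and 0.617% and 0.591% in scaled TPM. For G108 on SP in scaled TPM the shares were 1.29% and 1.34%. Nothing particular to these lists is read from counts of 0. For HP against SP with G108 in TPM, 45% of all genes had an unadjusted p under 0.05 in limma. Such a p was reached by 5 of 7 elongation factors, 24 of 29 initiation factors, 21 of 26 other TOP genes, 31 of 53 ribosome biogenesis genes, 15 of 25 regulators and 7 of 9 relatives. It was reached by 39 of 78 mitochondrial ribosomal protein genes, 32 of 37 proteasome genes and 7 of 74 nuclear respiratory chain genes.

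The libraries carried their tissue's markers, with summed hepatocyte markers of 52268 to 94380 TPM in G108 HP, 81250 to 112294 TPM in G108 SP, 40779 to 73603 TPM in vehicle SP and 59947 to 77734 TPM in vehicle HP, all 18 of 18 markers being above the mean of 1 TPM. Blood cell markers summed to 606 to 2107 TPM, Kupffer cell markers to 48.7 to 199 TPM, lymphocyte and other leukocyte markers to 11.4 to 43.7 TPM, endothelial markers to 19.5 to 41.6 TPM, stellate cell markers to 9.38 to 22.6 TPM and cholangiocyte markers to 10.4 to 20.2 TPM. Pancreas markers summed to 4.74 to 13.2 TPM, adipocyte markers to 0.543 to 1.99 TPM and skeletal muscle markers to 0.227 to 1.41 TPM, with Lep, Prss1 and Myh1 listed at 0 in all 16 libraries. The cholangiocyte sum was mostly Spp1 (9.70 to 18.1 TPM) and the pancreas sum mostly Cela1 (4.63 to 13.2 TPM). Each was the only 1 of 6 markers with a mean of at least 1 TPM. That mean was reached by 5 of 9 blood cell, 10 of 11 Kupffer cell and 7 of 8 endothelial markers. It was reached by 3 of 16 leukocyte and 3 of 9 stellate cell markers, and by 0 adipocyte or muscle markers. Hepatocyte and cholangiocyte sums were higher in TPM in every G108 SP mouse than in every vehicle SP mouse. The nearest cholangiocyte sums were 17.6 and 17.5 TPM, and 77% of all genes were called higher in TPM on SP. In scaled TPM 10 of 18 hepatocyte markers were above 0 on SP, with a median log2 difference of 0.10 and 1 called higher. Spp1, the 1 cholangiocyte marker tested, was at −0.32 in scaled TPM. The part of these sums in the members' TPM difference was not tested.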

How the data were processed

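Per the sample records, liver RNA was extracted with TRIzol and libraries were sequenced by a service provider. The authors checked reads with FastQC 0.11.8, aligned them to GRCm38 with HISAT2 2.0.5, counted them per gene with featureCounts and ran DESeq2 1.36.0 on the counts. The values deposited by the authors are TPM, in 16 columns for the 16 mice, and all were used. TPM sums to the same total in each library, so a change in a few abundant genes moves all others. GENCODE (GRCm38) supplied symbols, coordinates and exon lengths for 55227 of 55487 genes, and RefSeq supplied the promoters.

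The members and the gene lists were chosen with earlier results of these data known. The test was limma (version 3.58.1, in R 4.3.3) with an intensity trend, fitted to log2(TPM + 1) of the 11839 genes whose mean TPM reached 1. All 16 libraries entered, each group having a mean of its own. p-values were adjusted by Benjamini-Hochberg over the 11839 genes, and a gene was called where the adjusted p fell under 0.05. A log2 difference on this scale understates that of low genes. Scaled TPM was TPM divided by a median-of-ratios factor per library (0.686 to 1.53), computed over 17705 genes. Named members were the 5 highest and 3 lowest by mean TPM, the 3 largest and 3 smallest log2 differences per contrast in TPM, the same in scaled TPM for G108 on each diet, the member with the largest SD, and the set Rpsa, Rplp0, Rplp1, Rplp2, Rpl3, Rpl5, Rpl11, Rps6, Rps27a and Rpl41. Up to 4 genes were named per list. A few genes that this rule names are not reported here. Rps18, Rps27, Rpl10a, Rpl28, Rpl8, Rpl15 and Rpl23 were named after their values were seen. On simulated data for G108 against vehicle on SP the model recovered 74% of 200 changed genes among 11839, with 3.27% of 153 calls wrong and 0 calls in a contrast without change. There the genes varied independently, each changed gene was moved by 1 log2 unit, and no whole library was shifted. The real libraries differ in these respects, so the rates do not carry over to the calls above.

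Reads per library were recovered from low values, which are whole multiples of that of 1 read. Of 113146 such values 98.9% lay within 0.02 of a whole read. Depth was 33.4 to 45.0 M reads in vehicle SP, 27.8 to 35.9 in G108 SP, 34.5 to 44.1 in vehicle HP and 30.5 to 36.5 in G108 HP. Depth limits precision by counting error, which is part of the spread between mice. Within groups r of log2 values was 0.929 to 0.989, and at most 0.110% of values were identical, so no library was a duplicate. Mouse numbers did not pair the groups. Alternatives covered the pseudocount, the filter, the scaling, the samples fitted, limma voom on recovered reads, a replicate block, trends with length and GC content, and each library left out.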

Additional observations from a re-analysis of the deposited data

Results flagged for a closer look

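Of 132 groups of 4 values examined, 3 held a mouse far from the other 3, where chance flags about 1 in 20, or 6.6 groups. Rps6 was at 208 TPM in the third G108 SP mouse, above 174 to 177 TPM in the others. Rps28, a small-subunit protein, was at 23.2 TPM in the fourth G108 HP mouse, above 17.1 to 17.7 TPM. The gap between long and short members was 0.469 in the first vehicle HP mouse, under 0.792 to 0.805 in the others.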

How the results depend on the processing

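The calls of G108 against vehicle on SP rested on the scale. Of 77 members, 0 were called under median-of-ratios scaling, where 1.29% of all genes were called higher and 1.34% lower. The count was also 0 under TPM rescaled without members, mitochondrial and Mup genes. It was 0 too under median-of-ratios scaling with the trend on exon length or on GC content removed. The members' median log2 difference on SP was then −0.0918, −0.0434, −0.0848 and −0.11 in that order, and 0.48 in limma voom on recovered reads. For G108 on HP the rescaling gave −0.0851. For HP against SP with G108 the medians were −0.0106, −0.15, −0.0057 and 0.0106, and −0.25 in voom. For HP against SP with vehicle they were −0.0869, −0.11, −0.10 and −0.10. The interaction gave 0.0707, −0.0490, 0.0923 and 0.11, and −0.31 in voom, which called 60 members on SP. The members' share of the total in vehicle SP, G108 SP, vehicle HP and G108 HP was 0.713%, 1.02%, 0.754% and 0.839% of recovered reads, 1.52%, 1.48%, 1.41% and 1.34% without mitochondrial and Mup genes, and 0.424%, 0.681%, 0.455% and 0.496% without the 8 members of over 50% shared sequence. Leaving out 1 library gave 69 to 76 members called on SP, 0 to 58 for HP against SP with G108, 0 to 49 for the interaction and 0 in the other contrasts, and 0 in all 5 in scaled TPM. In TPM the same fits called 7854 to 9348 of all 11839 genes on SP and 0 to 209 for G108 on HP. They called 0 to 5047 for HP against SP with G108 and 0 to 5202 for the interaction. In scaled TPM 151 to 453 genes were called on SP and 19 to 208 for G108 on HP. On SP the sign of named members turned negative, in log2 difference, under median-of-ratios scaling (Rpl19 −0.22, Rps15 −0.26, Rps2 −0.0207, Rpl36 −0.35, Rplp1 −0.0417, Rps15a −0.0238, Rps19 −0.15, Rps28 −0.12, Rpl31 −0.40, Rps27l −0.32, Rps29 −0.29, Rpl37 −0.33, Rpsa −0.0927, Rpl11 −0.20 and Rps27a −0.15), rescaling (Rpl19 −0.17, Rps15 −0.21, Rpl36 −0.30, Rps19 −0.11, Rps28 −0.0710, Rpl31 −0.36, Rps27l −0.28, Rps29 −0.24, Rpl37 −0.28, Rpsa −0.0447, Rpl11 −0.16 and Rps27a −0.0999), the exon length trend removed (Rpl19 −0.21, Rps15 −0.24, Rps2 −0.0283, Rpl36 −0.33, Rplp1 −0.0217, Rps15a −0.0369, Rps19 −0.17, Rps28 −0.12, Rpl31 −0.41, Rps27l −0.31, Rps29 −0.27, Rpl37 −0.33, Rpsa −0.12, Rpl11 −0.23 and Rps27a −0.16) and the GC trend removed (Rpl19 −0.23, Rps15 −0.24, Rps2 −0.0071, Rpl36 −0.33, Rplp1 −0.0227, Rps15a −0.0556, Rps19 −0.15, Rps28 −0.14, Rpl31 −0.44, Rps27l −0.33, Rps29 −0.30, Rpl37 −0.34, Rpsa −0.0997, Rpl11 −0.21 and Rps27a −0.18). The cause was not tested. With mouse number as a replicate block 74 members were called on SP and 0 in the other contrasts, and same-numbered libraries correlated from −0.58 to 0.53 in their deviations with 3 libraries closest to their own number, so that only a number is shared. Shares over all genes are not given for the rescaling, the removed trends, the replicate block or voom. The counts of members from these fits, here and above, are therefore not read as results about the members. The mRNA length trend, the block and the left-out libraries in scaled TPM, and the correlations with protein length without each library, were added after the data had been seen.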
